A study of Mus musculus with 14 samples.

Results

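The immediate early response genes are the genes that a cell transcribes first after a stimulus, before any new protein has been made. In this report they are 10 genes, Fos, Fosb, Jun, Junb, Egr1, Egr2, Egr3, Nr4a1, Ier2 and Dusp1, which were taken by name. On the array, 14 probes carried an accession that RefSeq assigns to 1 of these symbols, out of 56605 probes in all. Of the 14 probes, 12 were bright enough to be tested, at least 1 for each gene, so that all 10 genes stand among the 24908 genes tested.

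RNA of splenocytes was measured on 14 one-colour arrays, 1 mouse per array, from 7 WT mice (strain C57BL/6) and 7 Sting gt/gt mice (strain label Stinggt/gt(Tmem173gt)), whose age of 10 to 14 weeks is, by the study's methods, that at immunization. All 14 mice had received chicken collagen type II in complete Freund's adjuvant (CII and CFA, the agents of collagen-induced arthritis) 2 weeks earlier, so no group shows the level of these genes before immunization. The golden ticket allele gt was made by chemical mutagenesis and leaves mice without a working STING, the adaptor that signals from cytosolic DNA to type I interferons. The WT mice came from a national animal centre and the Sting gt/gt mice from a line of another laboratory, every cell carries the allele, and red cells were lysed before RNA was taken.

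Immediate early genes are switched on within minutes by kinases of the MAPK family and by calcium and cyclic AMP, through factors such as SRF with its ELK partners and CREB that already sit on their promoters. FOS and JUN proteins pair to form the factor AP-1, the EGR proteins are zinc finger factors, NR4A1 is an orphan nuclear receptor used as a reporter of antigen receptor signals in B and T cells, IER2 is a nuclear protein of the same early wave, and DUSP1 is a phosphatase that removes the phosphates from MAP kinases and so ends the signal. In spleen these genes follow antigen receptor and Toll-like receptor stimulation of lymphocytes and myeloid cells, and they are also known to rise while a tissue is taken apart into single cells.

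The promoters were searched for sites through which the early response is known to work. RefSeq windows on the assembly GRCm38.p6 were at hand for 7 of the 10 genes, and 6 are shown. Junb and Nr4a1 are among them because they passed an unadjusted p under 0.05 in limma between genotypes in 1 set of arrays. Neither passed an adjusted p of 0.05 there. Egr2 is shown because it differed most between the sets of arrays, and Fos, Jun and Dusp1 are shown for comparison. Each line gives the 150 bases before the annotated start, read in the direction of the gene. Capitals mark the core of the cyclic AMP response element (CRE core, TGACG on either strand), the CArG box that SRF binds and the EGR site GCGGGGGCG on either strand. Egr2 has 5 annotated windows, and the one shown was picked because it holds both kinds of site.
Fos, chr12:85473740-85473889, plus strand: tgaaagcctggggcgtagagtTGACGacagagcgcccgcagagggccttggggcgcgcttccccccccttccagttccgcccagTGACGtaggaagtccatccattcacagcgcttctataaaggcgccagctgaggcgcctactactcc
Jun, chr4:95052223-95052372, minus strand: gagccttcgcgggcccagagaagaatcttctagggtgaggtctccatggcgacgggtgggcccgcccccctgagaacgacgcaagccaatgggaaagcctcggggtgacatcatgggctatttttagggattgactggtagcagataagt
Junb, chr8:84978749-84978898, minus strand: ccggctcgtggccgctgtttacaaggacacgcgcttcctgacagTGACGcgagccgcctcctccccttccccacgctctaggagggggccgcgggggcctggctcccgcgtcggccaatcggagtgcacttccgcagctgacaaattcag
Egr2, chr10:67537719-67537868, plus strand: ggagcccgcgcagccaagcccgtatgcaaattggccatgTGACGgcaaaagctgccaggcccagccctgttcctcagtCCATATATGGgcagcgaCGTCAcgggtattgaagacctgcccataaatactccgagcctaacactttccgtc
Nr4a1, chr15:101266696-101266845, plus strand: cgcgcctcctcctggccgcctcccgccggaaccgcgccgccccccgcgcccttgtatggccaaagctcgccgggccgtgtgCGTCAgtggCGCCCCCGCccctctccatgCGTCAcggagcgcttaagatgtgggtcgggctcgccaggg
Dusp1, chr17:26508473-26508622, minus strand: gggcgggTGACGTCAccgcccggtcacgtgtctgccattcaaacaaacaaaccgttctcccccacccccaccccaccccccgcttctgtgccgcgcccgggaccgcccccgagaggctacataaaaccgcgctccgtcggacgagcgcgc
The CRE core lay within the 250 bases before the start in 6 of the 7 genes, all but Jun, and in 8 of their 11 windows, while 17.8% of all 32851 windows held it. The full CRE, TGACGTCA, which contains 2 overlapping cores, was found in Dusp1 only of these genes, and in 1.55% of all windows. A CArG box was found in 4 of the 5 windows of Egr2, of which 3 overlap and hold the same box, so that Egr2 has 2 distinct boxes, and in 1.47% of all windows. The same 3 windows also repeat the 2 CRE cores of Egr2 in the count of 8. The EGR site was found in Fosb and Nr4a1 (2.57% of all windows) and the TATA box TATAAA in Fos (12.4%), and the AP-1 site TGAGTCA in none of these windows (4.46%). These are matches of letters in a window of fixed length and were not measured as bound sites.

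Values are given as the log2 of the processed signal of a probe minus the log2 of the 75th percentile of its own array, so that 0 is the level of that percentile and 1 is a doubling. Levels of different probes cannot be set against each other on an array, so only mice are compared. The 6 arrays of replicates 1 to 3 were scanned on 1 day and the 8 arrays of replicates 4 to 7 on another, and both days hold both genotypes. The 2 array sets differed at 38.8% of the 24908 genes (9673 genes past an adjusted p of 0.05 in limma), so each comparison of genotypes is given over all arrays and within each set. Between genotypes over all arrays, 882 genes (3.54%) passed the study's threshold of an unadjusted p under 0.05 and none of the 10 genes did, by limma or by the exact permutation test. The transcript of Sting itself, Sting1, lay between 2.85 and 3.33 in WT and between 2.92 and 3.29 in Sting gt/gt mice, which does not test the labels because a point mutation need not change its level.

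**Figure D1:**
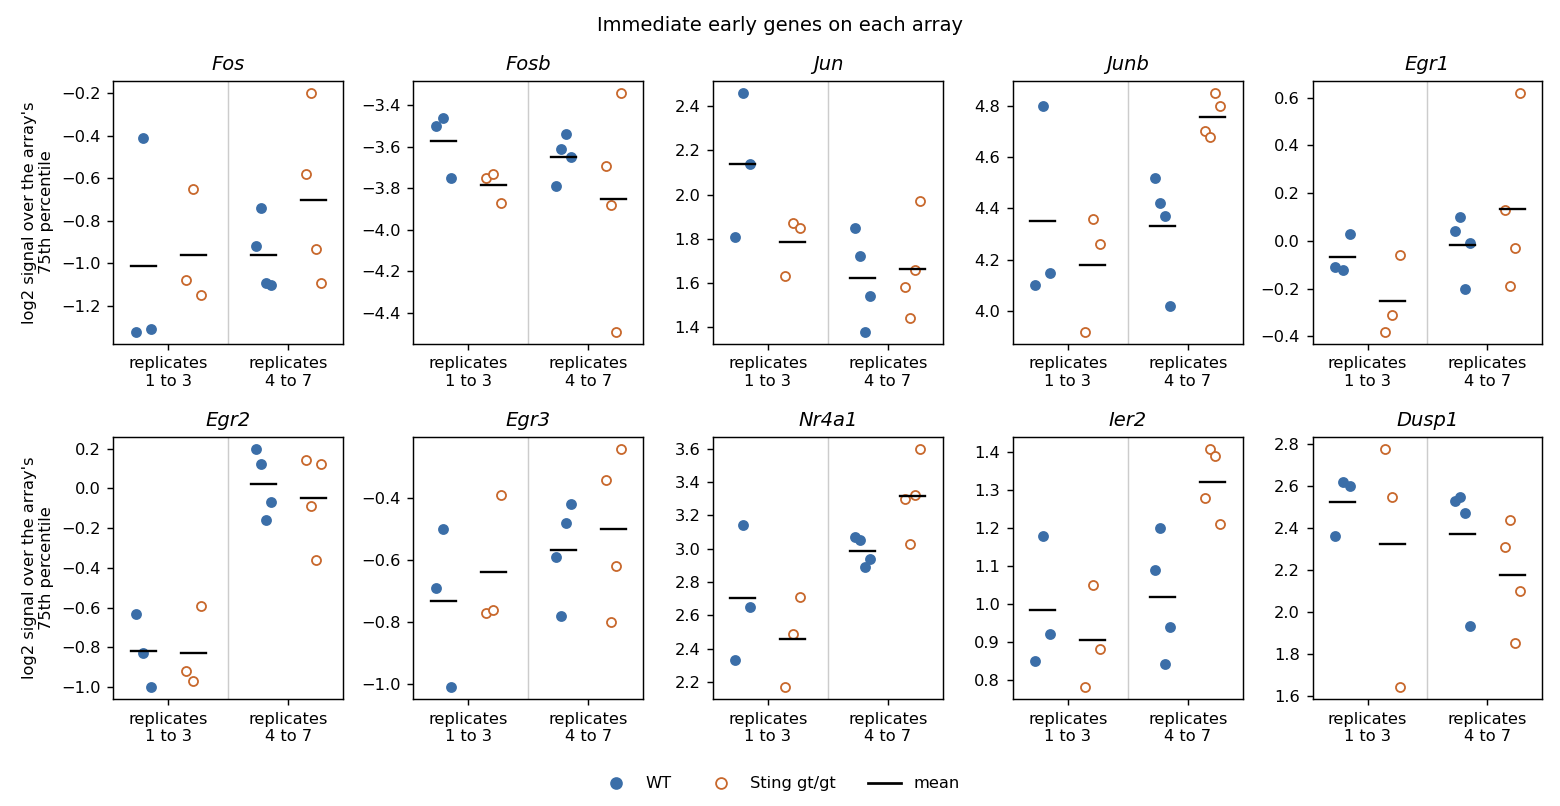
Each panel plots 1 gene, with the log2 signal over the array's 75th percentile on its own vertical scale; a filled point is a WT mouse, an open point a Sting gt/gt mouse, and a line the mean of a group within replicates 1 to 3 (left) or 4 to 7 (right). Egr2 is higher on every array of replicates 4 to 7 than on any of replicates 1 to 3, and Junb and Ier2 of the 2 genotypes do not overlap in replicates 4 to 7. In limma 38.8% of all genes differed between the sets at an adjusted p under 0.05. Between genotypes 23.7% passed an unadjusted p under 0.05 in replicates 4 to 7. The share of all genes without overlap was not counted.

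Among the AP-1 genes, Fos ranged from -1.32 to -0.41 with a median of -1.09 in WT and from -1.15 to -0.20 with a median of -0.93 in those with Sting gt/gt. The ranges overlapped over most of their length, and the highest values were those of WT replicate 2 and Sting gt/gt replicate 5. The difference, Sting gt/gt minus WT, was 0.17 ± 0.17 (SE, n = 7 and 7; exact permutation p = 0.342), with a 95% interval from -0.20 to 0.54. Fos varied more between mice of the same genotype and array set than most genes, with an SD of 0.352 that lay at the 79.0th percentile of all genes tested.

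Fosb, a relative of Fos, was well above background on all 7 WT arrays and on 5 of the 7 Sting gt/gt arrays. It ranged from -3.79 to -3.46 (median -3.61) in WT and from -4.49 to -3.34 (median -3.75) in Sting gt/gt mice. Both ends of the second range came from replicates 6 and 7 of Sting gt/gt, the lowest and the highest of all arrays. The difference was -0.20 ± 0.14 (exact permutation p = 0.166), the lowest p of the 10 genes, and it was -0.21 in replicates 1 to 3 and -0.20 in replicates 4 to 7. Single arrays and the background correction moved it, to -0.28 without Sting gt/gt replicate 7, which passed the threshold in limma, to -0.091 without Sting gt/gt replicate 6 and to -0.048 with normexp background correction. A second Fosb probe was not well above background on any array.

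Jun, the main partner of FOS proteins, ranged from 1.38 to 2.46 (median 1.81) in WT and from 1.44 to 1.97 (median 1.66) in Sting gt/gt mice, so that the Sting gt/gt values lay wholly inside the WT range. The difference was -0.13 ± 0.15 (exact permutation p = 0.431). Within the sets it was -0.35 ± 0.19 in replicates 1 to 3 (exact permutation p = 0.3, where 0.1 is the smallest that 3 against 3 mice allow), and 0.04 ± 0.15 in replicates 4 to 7.

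Junb, an AP-1 subunit that is abundant in lymphocytes, ranged from 4.02 to 4.80 (median 4.37) in WT and from 3.92 to 4.85 (median 4.68) in Sting gt/gt mice. Over all arrays the ranges overlapped and the difference was 0.17 ± 0.16 (exact permutation p = 0.319). In replicates 4 to 7 the WT mice had 4.52, 4.42, 4.37 and 4.02 and the Sting gt/gt mice 4.70, 4.68, 4.85 and 4.80. The difference there was 0.42 ± 0.12 with a 95% interval from 0.14 to 0.70 (exact permutation p = 0.0286, the smallest that 4 against 4 mice allow), and its p adjusted over all genes in limma was 0.0949. In replicates 1 to 3 the WT mice had 4.10, 4.80 and 4.15 and the Sting gt/gt mice 3.92, 4.36 and 4.26, a difference of -0.17 ± 0.23.

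A second Junb probe had the opposite sign within each set but not over all arrays, where its difference was 0.10 ± 0.26. It was dim, with values from -4.39 to -2.82. It was well above background on 10 of the 14 arrays (4 WT and 6 Sting gt/gt) and gave 0.39 in replicates 1 to 3 and -0.12 in replicates 4 to 7, and its values correlated with those of the first at r = 0.25 over the 14 arrays. With the mean of both probes in place of the brighter one, the difference between the sets in the effect of genotype was 0.04 in place of 0.59. That mean gives the dim probe the same weight as the bright one.

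None of the EGR genes passed the threshold between genotypes. Egr1, the best known of them and a direct target of SRF, ranged from -0.20 to 0.10 (median -0.01) in WT and from -0.38 to 0.62 (median -0.06) in Sting gt/gt mice. The WT values lay inside the Sting gt/gt range, whose highest value, 0.62, was that of replicate 7. The difference was 0.005 ± 0.14 with a 95% interval from -0.29 to 0.30 (exact permutation p = 0.979), and its sign changed with the scaling of the arrays (-0.01 after median centring).

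Egr2, which restrains T cells and marks antigen receptor signals, ranged from -1.002 to 0.20 (median -0.16) in WT and from -0.97 to 0.14 (median -0.36) in Sting gt/gt mice. The difference between genotypes was -0.04 ± 0.23 (exact permutation p = 0.869). The spread lay between the array sets, with -1.002 to -0.59 over the 6 arrays of replicates 1 to 3 and -0.36 to 0.20 over the 8 arrays of replicates 4 to 7. Within the sets the genotypes differed by less than 0.1, at -0.004 ± 0.17 and -0.07 ± 0.14.

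Egr3, a relative with roles close to those of Egr2, ranged from -1.01 to -0.42 (median -0.59) in WT and from -0.80 to -0.24 (median -0.62) in Sting gt/gt mice, a difference of 0.08 ± 0.12 (exact permutation p = 0.504). Its other tested probe gave -0.07 ± 0.19, and its remaining probe was not well above background on any array. The 2 tested Egr3 probes correlated at r = 0.52 over the 14 arrays.

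Nr4a1 ranged from 2.33 to 3.14 (median 2.94) in WT and from 2.17 to 3.60 (median 3.03) in Sting gt/gt mice, and the difference over all arrays was 0.08 ± 0.21 (exact permutation p = 0.723). In replicates 4 to 7 the WT mice had 3.07, 3.05, 2.89 and 2.94 and the Sting gt/gt mice 3.30, 3.03, 3.32 and 3.60, so that 3 of the 4 Sting gt/gt mice lay above all WT mice. The difference there was 0.33 ± 0.13 with a 95% interval from 0.03 to 0.62, which passed the unadjusted threshold in limma but not in the exact permutation test (p = 0.0857). In replicates 1 to 3 the difference was -0.25 ± 0.24.

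Ier2 ranged from 0.84 to 1.20 (median 0.94) in WT and from 0.78 to 1.41 (median 1.21) in Sting gt/gt mice, a difference of 0.14 ± 0.12 (exact permutation p = 0.22). In replicates 4 to 7 the WT mice had 1.09, 1.20, 0.84 and 0.94 and the Sting gt/gt mice 1.28, 1.41, 1.39 and 1.21. These values did not overlap, though WT replicate 5 and Sting gt/gt replicate 7 were within 0.01 of each other. Of all genes 23.7% passed the unadjusted threshold in limma in that set, and the share without overlap was not counted. The difference there was 0.30 ± 0.11 (exact permutation p = 0.0286; adjusted p = 0.149 in limma), and in replicates 1 to 3 it was -0.08 ± 0.15. Ier2 varied less between mice than most genes, with an SD of 0.142 at the 16.9th percentile.

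Dusp1, the phosphatase that closes the response, ranged from 1.93 to 2.62 (median 2.53) in WT and from 1.64 to 2.78 (median 2.31) in Sting gt/gt mice. The lowest and the highest value of all 14 arrays were both from Sting gt/gt mice of the first set, replicates 3 and 1. The difference was -0.20 ± 0.17 (exact permutation p = 0.284), with -0.20 ± 0.29 in replicates 1 to 3 and -0.19 ± 0.18 in replicates 4 to 7. It was -0.099 without Sting gt/gt replicate 3 and -0.29 without replicate 1.

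As a group the genes were centred near 0. Over all arrays Sting gt/gt mice had more of 6 of the 10 and less of 4, and the median difference was 0.04, beside a median of 0.02 over all genes tested. Of all 24908 genes 13907 were higher. In replicates 1 to 3, 2 of the 10 were higher (Fos and Egr3), beside 50.6% of all genes. The median of the 10 there was -0.18 (0.003 over all genes), and none passed the threshold, beside 3.77% of all genes. In replicates 4 to 7, 7 of the 10 were higher, beside 55.2% of all genes, with a median of 0.11 (0.04 over all genes). In limma 3 of the 10 passed the unadjusted threshold there (Junb, Nr4a1 and Ier2), all higher in Sting gt/gt mice. That set held many such genes, since 23.7% of all genes passed there in either direction and 12.5% passed and were higher in Sting gt/gt mice, and none of the 10 genes passed an adjusted p of 0.05. The sign of the difference changed between the sets for 5 genes, Jun, Junb, Egr1, Nr4a1 and Ier2. The share of all genes whose sign changed was not counted.

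**Figure D2:**
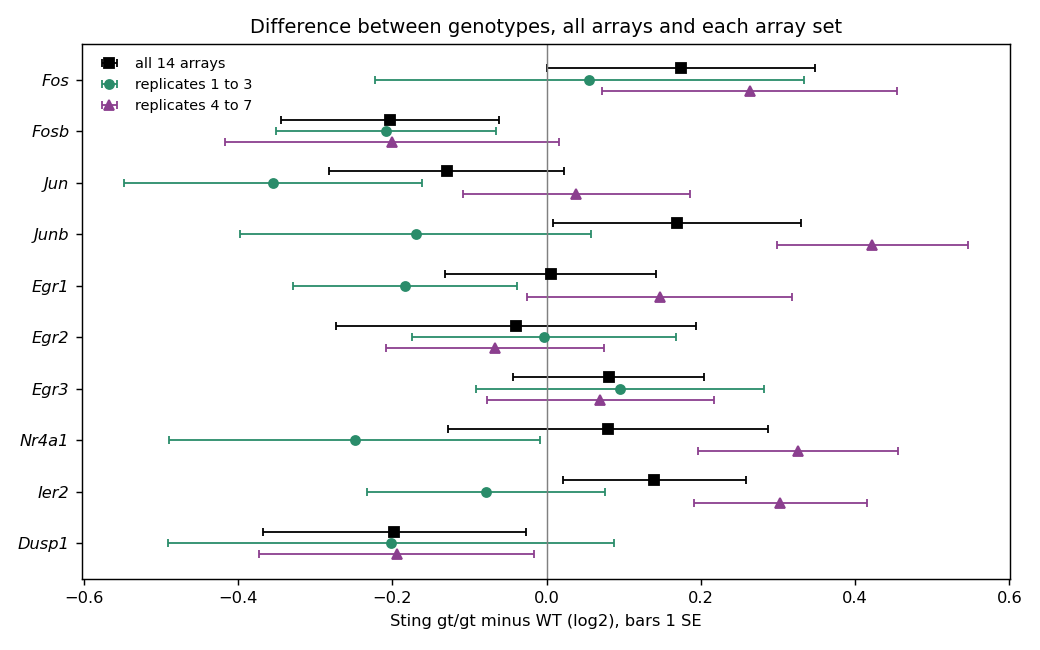
For each gene the horizontal axis gives the difference Sting gt/gt minus WT on the log2 scale, over all 14 arrays (squares), replicates 1 to 3 (circles) and replicates 4 to 7 (triangles), with bars of 1 SE. Junb, Nr4a1 and Ier2 lie above 0 in replicates 4 to 7 (0.42, 0.33 and 0.30) and below 0 in replicates 1 to 3, while Fosb and Dusp1 lie near -0.20 in both.

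Whether the effect of genotype differed between the 2 array sets was tested as an interaction. The difference of the 2 effects, replicates 4 to 7 minus replicates 1 to 3, was 0.59 ± 0.25 for Junb (exact permutation within sets p = 0.0486), 0.38 ± 0.17 for Ier2 (exact permutation p = 0.0386) and 0.57 ± 0.27 for Nr4a1 (exact permutation p = 0.0671). All 3 passed an unadjusted p of 0.05 in limma, as did 18.4% of all genes, and none of the 10 passed an adjusted p of 0.05 (0.23, 0.264 and 0.27), as 122 genes did. After quantile normalization, after normexp background correction and in the deposited series table, none of the 3 passed the unadjusted threshold (differences of 0.46, 0.47 and 0.43 for Junb). Single arrays also decided it. Without WT replicate 2 the difference was 0.37 for Junb, 0.28 for Ier2 and 0.36 for Nr4a1, without Sting gt/gt replicate 1 it was 0.46, 0.32 and 0.43, and none passed the unadjusted threshold in either case. Junb no longer passed without WT replicate 7, Sting gt/gt replicate 6 or Sting gt/gt replicate 7 either. Ier2 passed in 5 of the 14 fits with 1 array left out (WT replicate 1, 4 or 5, or Sting gt/gt replicate 2 or 7) and Nr4a1 in 3 (WT replicate 1, or Sting gt/gt replicate 3 or 5).

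On 4 slides all arrays were of 1 genotype, and in replicates 4 to 7 each slide held a single genotype, so that slide and genotype cannot be told apart there. The markers of B cells, the most abundant lymphocytes of the spleen, moved with genotype in opposite directions in the 2 sets. In replicates 4 to 7 all 6 B cell markers tested were lower in Sting gt/gt mice (median -0.49, all 6 past the unadjusted threshold), and their average lay between 2.54 and 3.09 in WT and between 2.21 and 2.50 in Sting gt/gt mice. In replicates 1 to 3 all 6 were higher in the mutants (median 0.24, none past the threshold), at 2.22 to 2.51 in WT and 2.48 to 2.95 in Sting gt/gt mice. Each of these markers was well above background on all 14 arrays, though Pax5 was dim (-2.46 to -1.71 in WT and -2.97 to -1.79 in Sting gt/gt mice). The difference of Ms4a1 (CD20) was -0.47 in replicates 4 to 7. Of 4 plasma cell markers, Jchain (0.60) and Sdc1 (0.86) were higher in Sting gt/gt mice in replicates 4 to 7 and Prdm1 (-0.26) and Mzb1 (0.10) did not pass. In replicates 1 to 3 Jchain was lower in the mutants (-0.34, past the unadjusted threshold), and Sdc1 (-0.23), Prdm1 (-0.01) and Mzb1 (0.08) did not pass. The part of the cell mixture in the values of Junb, Nr4a1 and Ier2 was not tested, and in spleen RNA fewer cells of a type and less RNA per cell cannot be told apart.

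Between the array sets, over both genotypes, 2 of the 10 genes passed an adjusted p of 0.05 in limma, beside the 38.8% of all genes given above. Egr2 was higher by 0.81 ± 0.11 in replicates 4 to 7 (adjusted p = 4.7e-05), with -1.002 to -0.59 on the first day and -0.36 to 0.20 on the second. Nr4a1 was higher by 0.57 ± 0.15 (adjusted p = 0.0082), with 2.17 to 3.14 on the first day and 2.89 to 3.60 on the second. Of the others, Jun was lower by 0.31 ± 0.13 (adjusted p = 0.0677), Ier2 higher by 0.23 ± 0.10 (adjusted p = 0.088) and Junb higher by 0.28 ± 0.14 (adjusted p = 0.148). The count depended on the scaling. Median centring moved the median of all genes to 0.17 and left 6 of the 10 past the threshold, beside 45% of all genes. Of the 6, Egr2 (0.97) and Nr4a1 (0.73) stood farthest from that median. In the deposited series table Egr2 differed by 0.20 and Nr4a1 by 0.11 between the sets, and no gene of the 24908 passed an adjusted p of 0.05 (348, or 1.4%, passed the unadjusted threshold in limma).

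The variation between mice was also compared from gene to gene. After the mean of each genotype and array set was taken away, the deviations of the 10 genes over the 14 arrays gave 45 pairs, with a median r of 0.21, beside -0.0025 over all pairs of genes tested. An r above 0.5 was found for 12 of the 45 pairs (26.7%), beside 14.0% of all pairs of genes, and below -0.5 for none. Of the 45 pairs 13 were below 0, and 17 had opposite signs in the 2 array sets, such as Fos and Nr4a1 (0.67 in the first and -0.69 in the second) and Egr3 and Ier2 (0.32 and -0.82). These are descriptions over arrays that share the subtracted means, and all genes of an array share its RNA and its scaling.

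The closest pair was Jun and Nr4a1, at r = 0.90 (Spearman's rho 0.93, and r = 0.82 without the 2 arrays farthest from the median of Jun). It was 0.95 over the 6 arrays of replicates 1 to 3 and 0.90 over the 8 arrays of replicates 4 to 7. Fos and Ier2 followed at r = 0.77 (rho 0.71, 0.71 without 2 arrays), with 0.93 and 0.61 in the sets. Junb and Nr4a1 had r = 0.76 (rho 0.74, 0.72 without 2 arrays), at 0.90 in the first set and 0.38 in the second, and Jun and Junb had r = 0.71 (rho 0.67, 0.52 without 2 arrays), at 0.90 and 0.48. The lowest was Egr3 with Dusp1 at r = -0.50.

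Single mice stood out in these deviations. WT replicate 2 had the highest average over the 10 genes, 0.24 above its group, with 8 of the 10 above the mean, led by Fos (0.60), Junb (0.45) and Nr4a1 (0.43). Sting gt/gt replicate 7 followed at 0.15, with 7 of the 10 above the mean. Sting gt/gt replicate 6 was lowest at -0.16, with 4 of the 10 above the mean and Fosb at -0.65. With the 10 genes scaled to the same spread before averaging, Jun (r = 0.83), Nr4a1 (0.82) and Junb (0.76) followed the average most closely, and Dusp1 (0.12) least. Each gene is itself part of that average, which raises its r.

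**Figure D3:**
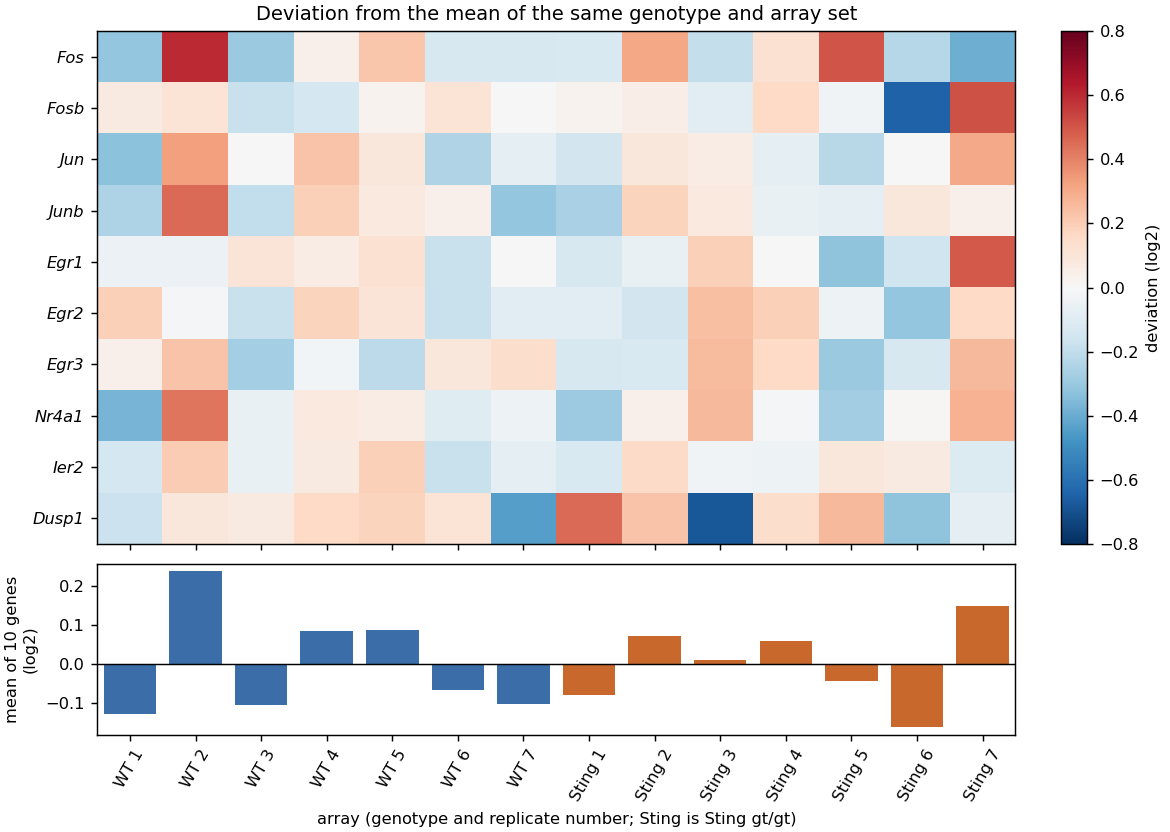
The colours give each gene's deviation on each array from the mean of its genotype and array set (log2), and the bars below the average over the 10 genes, with WT arrays in blue and Sting gt/gt arrays in orange. WT replicate 2 (0.24) and Sting gt/gt replicate 7 (0.15) have the highest averages and Sting gt/gt replicate 6 (-0.16) the lowest.

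Outside the 10 genes, those with a symbol whose deviations followed the average of the 10 most closely over the 14 arrays were St8sia6 (r = 0.96), Csnk1g3 (0.95), Tcf4 (0.94), BC065397 (0.94) and Zcchc2 (0.94). They are the highest of all tested genes with a symbol, and none passed the threshold between genotypes. With no group means taken away, their values followed the plain average of the 10 genes at r = 0.96, 0.85, 0.92, 0.38 and 0.79, in that order.

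Genes related to the early response were read from 6 lists of 82 genes, of which 78 were tested. The lists include 10 heat shock genes. Between genotypes 4 of the 78 (5.13%) passed the unadjusted threshold, beside 3.54% of all genes, and none passed an adjusted p of 0.05. Of the 4, 2 were among the 10 heat shock genes, 1 among 25 other early effectors and 1 among 5 tested dual specificity phosphatases. The 5.13% is therefore not the share of early genes alone. The count rose to 8 of 78 with the replicate number as a block (5.65% of all genes), to 10 with array set in the model (7.24%) and to 11 in the deposited table (7.74%). With slide as a random or a fixed block, Ier3, Dusp8 and Hspa8 no longer passed and Hspa1b did. Ier3, an early gene that acts in cell survival, was higher in Sting gt/gt mice by 0.28 ± 0.11, at -0.997 to -0.449 in WT and -0.77 to -0.28 in Sting gt/gt mice (exact permutation p = 0.0169). Its difference was 0.12 in replicates 1 to 3 and 0.40 in replicates 4 to 7. Dusp8, a phosphatase of the stress kinases JNK and p38, was lower by 0.53 ± 0.20, at 0.02 to 1.07 in WT and -0.43 to 0.96 in Sting gt/gt mice (exact permutation p = 0.0315). Within the sets its difference was -0.41 in replicates 1 to 3 and -0.62 in replicates 4 to 7.

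The list of heat shock genes, which encode protein chaperones, held the other genes that passed. Hspa8, the constitutive HSC70 chaperone, fell by 0.22 on the log2 scale, with 5.68 to 6.08 in WT and 5.53 to 5.93 in Sting gt/gt mice (exact permutation p = 0.0105). The difference of Hspa8 was -0.22 in each array set. Hspa1b, the inducible HSP70, fell by 0.58, with -2.62 to -1.15 in WT and -2.91 to -1.99 in Sting gt/gt mice (exact permutation p = 0.0559, over the threshold that limma passed). Its neighbour Hspa1a, a near copy whose signal can share targets with it, differed by -0.64 ± 0.33 and did not pass. Of the 10 heat shock genes 7 had lower and 3 higher values in the mutant mice, with a median difference of -0.21.

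Of the lists not named so far, each is given by its largest difference, which was that of Nr4a2, a relative of Nr4a1, at -0.25 ± 0.12 (exact permutation p = 0.0425, while limma did not pass it), among other early transcription factors, that of Creb1, which encodes CREB, at -0.26 ± 0.15, among upstream kinases and factors, and that of Jdp2, an AP-1 repressor, at 0.18 ± 0.14, among partners and corepressors. Of the 20 upstream kinases and factors 14 were higher in Sting gt/gt mice and none passed over all arrays, with a median of 0.05. In replicates 1 to 3, 4 of the 20 were higher, beside 50.6% of all genes, and in replicates 4 to 7, 16 of the 20, beside 55.2% of all genes. In the latter set 3 of the 20 passed the unadjusted threshold, Srf (0.24), Mapk3 (0.38) and Mapkapk2 (0.32), a share near the 12.5% of all genes that passed and were higher there. Of the 25 other early effectors, 12 were higher and 3 lower in replicates 4 to 7 than in replicates 1 to 3 past an adjusted p of 0.05 in limma, beside 38.8% of all genes in either direction, with Ccn2 (1.04), Nfkbiz (0.95) and Ccn1 (0.75) changing most, and none did in the deposited table.

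**Figure D4:**
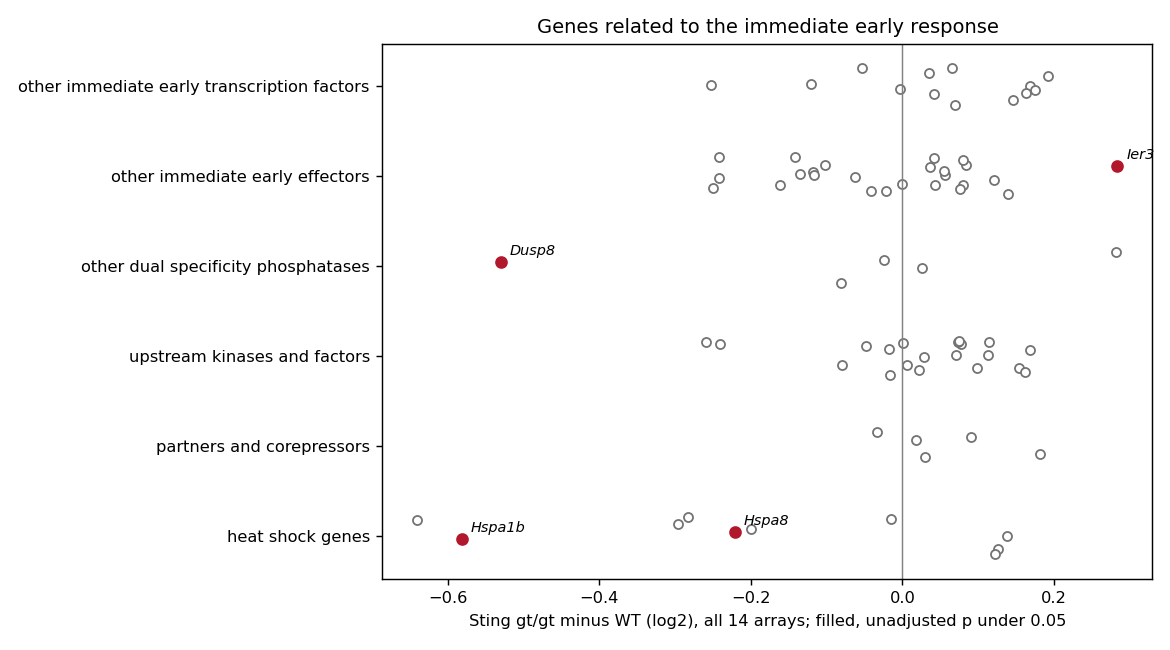
Each point is 1 of the 78 tested genes of 6 lists, placed by its difference Sting gt/gt minus WT over all 14 arrays (log2), and filled points passed an unadjusted p under 0.05 in limma. The 4 filled points are Ier3 (0.28), Dusp8 (-0.53), Hspa1b (-0.58) and Hspa8 (-0.22).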

How the data were processed

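Splenocyte RNA of each of the 14 mice was hybridized to its own one-colour Agilent array. The authors read the spots with Agilent Feature Extraction 11.0.1.1, whose processed intensity is corrected for background but not scaled across arrays. A table of log2 values for all arrays was deposited as well, with a normalization that is not given in the sources used here. Its column medians lay between 5.49 and 5.52, and each column followed the log2 processed intensity of its array at r = 0.9968 to 0.9986, so that scale and direction are known and its centring and any other adjustment between arrays are not. Differences between the array sets are changed in it by unlike amounts from gene to gene.

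Of 62976 spots per array, 59305 were not controls and stood for 56605 probes, and 32994 probes (58.3%) matched a symbol by accession in RefSeq. Outlier-flagged spots were left out, spots of a probe averaged, and each array's 75th percentile over probes (402.5 to 550.0 intensity units) subtracted on the log2 scale. Probes well above background on 7 or more arrays were tested (31766 probes), and a gene was read from its brightest tested probe. No member probe was saturated on any array. The number of arrays limits the precision. Fits used limma 3.58.1 in R 4.3.3 with no covariates and Benjamini-Hochberg adjustment over all genes tested, and were tested on simulated data. Two-sided exact permutation tests ran over 3432 ways to part the arrays, or 1400 within array sets. The groups come from the labels, and nothing says how animals were shared between experiments, so p-values speak only for these mice. Over all arrays the spread in the main fit includes the difference between the array sets. In replicates 4 to 7 the comparison of genotypes is also a comparison of slides. Arrays of the 2 genotypes with 1 replicate number deviated together (r from 0.16 to 0.53), and no longer once array set was taken away (-0.41 to 0.25).

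The 10 members are named with every probe. From the pathway lists those past the threshold and the largest difference of each list are named, and also the 5 genes most like the average of the members. Other list genes named beside array-set values were picked after their values were seen. The members and lists were chosen with earlier results of these data known. Alternatives were other scalings, background correction, filters, probe rules, the deposited table, array set, slide or replicate number in the model, each array set alone, and each array left out.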

Additional observations from a re-analysis of the deposited data

Results flagged for a closer look

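The effect of genotype differed between the 2 array sets for Junb by 0.59 and for Ier2 by 0.38 (replicates 4 to 7 minus replicates 1 to 3, exact permutation within sets, p = 0.0486 and p = 0.0386), and neither passed after adjustment over all genes in limma. For the same interaction 18.4% of all genes passed an unadjusted p under 0.05 in limma. Without WT replicate 2 the differences for Junb and Ier2 were 0.37 and 0.28, and without Sting gt/gt replicate 1 they were 0.46 and 0.32, none past the unadjusted threshold in limma. In replicates 4 to 7 the genotypes did not overlap for either gene, and all 4 Sting gt/gt arrays of that set were on a slide with no WT array. In that set 23.7% of all genes passed an unadjusted p under 0.05 between genotypes in limma. The share of all genes without overlap was not counted. A second, dim Junb probe had the opposite sign within each set. With the mean of both probes the difference between the sets in the effect of genotype was 0.04 for Junb.

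Dusp1 in WT replicate 7, at 1.93, lay far below the other 6 WT mice, which had 2.36 to 2.62. It was the only such value among 20 combinations of a gene and a genotype, and chance alone marks about 1 in 20. Without it the difference of Dusp1 between genotypes was -0.28, and without Sting gt/gt replicate 3, the lowest of all arrays, it was -0.099.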

How the results depend on the processing

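Over 31 alternative settings, 275 of 309 differences of single genes kept their sign and their side of the threshold, 30 changed sign and 4 passed it. The sign changed in replicates 1 to 3 alone for Junb (-0.17), Egr1 (-0.18), Nr4a1 (-0.25) and Ier2 (-0.079), in replicates 4 to 7 alone for Jun (0.039), with slide as a random block for Junb (-0.022), Egr1 (-0.13) and Nr4a1 (-0.17), and with slide as a fixed block for Junb (-0.21), Egr1 (-0.30), Nr4a1 (-0.39), Ier2 (-0.077) and Dusp1 (0.14). Egr1, near 0 throughout, also changed sign after median centring (-0.012), without scaling (-0.054), with the 75th percentile over spots (-0.00045, a setting chosen after seeing the data), with normexp background (-0.018) and in the deposited table (-0.0098). With 1 array left out at a time, differences ran from -0.10 to 0.063 for Egr1, from -0.15 to 0.059 for Egr2 and from -0.029 to 0.21 for Nr4a1. The count of the 10 genes past the unadjusted threshold, 0, was 3 in replicates 4 to 7 alone, where 23.7% of all genes passed. It was 0 to 1 with an array left out (Fosb, without Sting gt/gt replicate 7, beside 3.65% of all genes). The median difference of the 10 genes, 0.04, turned to -0.18 in replicates 1 to 3 alone, -0.11 with the slide as a random block and -0.12 as a fixed one, and was -0.07 to 0.09 with an array left out. Between array sets, the count of 2 became 6 after median centring, 0 in the deposited table and 2 to 4 with an array left out (4 without WT replicate 2, where Junb and Ier2 also passed). Of all genes 45% passed between the sets after median centring and 38.9% without WT replicate 2. The count for the interaction of genotype and set stayed at 0. The count of pathway genes past the threshold, 4, became 11 in the deposited table, 10 with array set in the model, 12 in replicates 4 to 7 alone and 2 to 7 with an array left out (2 without WT replicate 5, 7 without Sting gt/gt replicate 1). With the replicate number as a replicate block that count was 8, and the block changed no call of the 10 genes, which stayed at 0. The cause of these changes was not tested. No other setting run on all 14 arrays moved 1 of these counts by over 1.5 times. On 2 arrays Fosb was not well above background, which limits its value there.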
